A study of Mus musculus with 2 samples.

Results

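The 30 genes described here make up a fixed list of germ granule, piRNA pathway, RNA storage and translation control genes, out of 32285 genes in the deposited tables. All 30 were found by gene symbol, and they fall into 8 roles, from PIWI proteins to cofactors that bind double stranded RNA. RNA of single cells from whole dissociated mouse testis was captured with a droplet kit that tags the 3′ ends of transcripts. The Dot1L cKO library came from testes of the genotype Dot1L fl/delta with Ddx4-Cre, and the control library from Dot1L fl/+ testes without Cre. Both genotypes carry a floxed Dot1L allele, whose protein places methyl groups on histone H3 lysine 79. The Ddx4 promoter is active in germ cells, where the recombinase acts on the floxed allele, while somatic cells of the cKO testis carry the delta allele beside an intact floxed one. The control differs from the cKO in the Cre transgene as well as in the delta allele. Each genotype had 1 library, and the sources used here do not give the age or the number of the animals. There is therefore no test between the genotypes, and every interval below covers counting error only.

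Germ granules are clusters of RNA and protein without a membrane in the cytoplasm of germ cells, seen as intermitochondrial cement in spermatocytes and as the chromatoid body in round spermatids. They hold much of the machinery that makes PIWI-interacting RNAs (piRNAs), small RNAs that guide PIWI proteins to transposon and other transcripts. In the testis a large second wave of piRNAs appears in pachytene spermatocytes. Spermatids must also keep many mRNAs silent for days, because transcription stops when the chromatin is packed with protamines, and Y box proteins, cytoplasmic poly(A) polymerase and poly(A) binding proteins with their inhibitors act in that delay.

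The promoters of Papolb, Henmt1 and Dazap1 are shown because these 3 genes had the most lasting difference between the libraries. Each sequence runs 5′ to 3′ on the strand of the gene, from 250 bases before the RefSeq start site to 50 after it, in GRCm38.p6. Capitals mark matches to AACNGNC on either strand, the core of sites bound by MYB proteins, among which MYBL1 drives pachytene piRNA precursors. The regions are chr5:142530027-142530326 on the minus strand for Papolb, chr3:108940307-108940606 on the plus strand for Henmt1 and chr10:80264764-80265063 on the plus strand for Dazap1.
Papolb: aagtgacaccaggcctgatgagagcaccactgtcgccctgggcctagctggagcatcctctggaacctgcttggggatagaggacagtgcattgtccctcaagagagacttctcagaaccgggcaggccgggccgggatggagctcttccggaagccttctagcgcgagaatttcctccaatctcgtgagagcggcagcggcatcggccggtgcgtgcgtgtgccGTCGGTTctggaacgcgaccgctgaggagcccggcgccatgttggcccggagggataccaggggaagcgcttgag
Henmt1: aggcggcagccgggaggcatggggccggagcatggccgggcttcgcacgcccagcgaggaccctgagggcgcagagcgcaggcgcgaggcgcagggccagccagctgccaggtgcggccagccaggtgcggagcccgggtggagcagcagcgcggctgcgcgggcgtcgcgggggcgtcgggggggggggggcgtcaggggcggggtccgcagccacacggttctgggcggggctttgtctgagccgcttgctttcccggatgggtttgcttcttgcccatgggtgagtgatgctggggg
Dazap1: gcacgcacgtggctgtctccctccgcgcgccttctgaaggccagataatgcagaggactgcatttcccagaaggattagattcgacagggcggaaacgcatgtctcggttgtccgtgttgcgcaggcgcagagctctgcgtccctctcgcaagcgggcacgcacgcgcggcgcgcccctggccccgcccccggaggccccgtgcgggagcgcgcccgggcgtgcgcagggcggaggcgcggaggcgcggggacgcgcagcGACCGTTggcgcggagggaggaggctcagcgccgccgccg
The Papolb match starts at position -25 and the Dazap1 match at +11 from the start site, and these letters were not in the Henmt1 window.

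RefSeq promoters were found for 24 of the 30 genes. Of these 24, 11 (45.8%) had AACNGNC in at least 1 promoter, or 15 of their 34 promoters (44.1%), and 32.8% of all 32851 promoters of the same length held it. The others with a match were Tdrd1, Tdrd5, Tdrd7, Tdrd9, Tdrd12, Tdrkh, Mael, Mov10l1 and Pld6, all of the piRNA pathway. TGACGT, the core of the cAMP response element, was found in the Dazl promoter, and in 7.51% of all promoters. GTTGCCA, the core of sites bound by RFX factors, was found in a Ybx2 promoter, and in 4.38% of all promoters. Both strands were searched, and a match is a description of the letters and not a site.

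After filters on counts, mitochondrial share and doublets, 17295 cKO and 15160 control cells were kept, and 102 barcodes occurred in both libraries. Of 25 clusters, 15 were named by markers as spermatogonium-like, early spermatocyte-like, mid to late spermatocyte-like, round spermatid-like or elongating spermatid-like, and these are called by the plain stage names from here on. Clusters of a class were ordered by an index made from the stage markers. The libraries filled the clusters of a class unequally, so class ratios also carry the mix of clusters. The early class held 635 cells of cluster 7 and 451 of cluster 14 in the cKO library, against 336 and 325 in the control library. Cluster 9, the first of the mid to late class, held 533 cKO and 406 control cells. The 5 germ classes held 395, 1086, 1626, 1120 and 2839 cKO cells, and 222, 661, 1687, 1314 and 3194 control cells, in that order of stage. Median UMIs per cell ranged from 5933 to 22233 over these classes in the cKO library, against 7228.5 to 22483 in the control library. The control median was the higher one in each germ class. It was 10507 against 7302.5 in cKO early spermatocytes, and 8425 against 6948 in cKO elongating spermatids. A pool of Leydig-like cells and cells with macrophage and mesenchymal markers (485 cKO and 145 control cells) gave the somatic level. Levels are given in CPM, the UMIs of a gene over all UMIs of the class and library on the usual scale, and a gene was measured in a class with 50 or more UMIs over both libraries. Dot1l itself, the deleted gene, stood at 32.7, 57.0, 40.6, 4.25 and 1.23 CPM in the 5 cKO classes, against 57.0, 59.9, 104.6, 30.8 and 2.23 CPM in the control classes. Whether the 3′ tags can lie outside the deleted part was not tested. In elongating spermatids the 4 transition protein and protamine genes summed to 205140 CPM in the cKO library and 281440 CPM in the control library, which changes the share left for all other genes. The summed markers of other cell types in that class were 210.2 CPM for Sertoli cells, 11.04 CPM for Leydig cells and 28.1 CPM for erythroid cells in the cKO library, against 229.1, 3.68 and 5.70 CPM in the control library. T cell markers there summed to 121.5 CPM in cKO and 77.0 CPM in control cells, mid to late spermatocyte markers to 791.9 CPM in cKO and 627.1 CPM in control cells, and round spermatid markers to 1285 CPM in cKO and 1046 CPM in control cells. In early spermatocytes the sums were 264.1 CPM for Sertoli cells, 98.4 CPM for Leydig cells and 40.5 CPM for erythroid cells in the cKO library, against 143.6, 19.6 and 1.19 CPM in the control library. Their part in the results was not tested.

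The order of the genes along spermatogenesis was nearly the same in both libraries. The class of the highest CPM matched between the libraries for 29 of the 30 genes. How many of all genes matched in this way was not counted. The classes come from a joint clustering that left out 2745 genes over 2-fold apart between the libraries. Of the 30, 3 were highest in spermatogonia, 13 in early spermatocytes, 12 in mid to late spermatocytes, 1 in round spermatids and 1 in elongating spermatids of the cKO library, against 3, 14, 11, 1 and 1 in the control library. The exception was Ybx2, whose highest level lay in mid to late spermatocytes of the cKO library (433.4 CPM, against 392.3 CPM in early spermatocytes) and in early spermatocytes of the control library (425.9 CPM, against 383.0 CPM in mid to late ones). In 3 of 4 other settings (cells or clusters with equal weight, or values centred per library) the control peak of Ybx2 lay in mid to late spermatocytes too, and cluster 9 was its highest cluster in both libraries. By class of the highest CPM, most piRNA biogenesis genes peaked before the chromatoid body genes, and these before the inhibitors of poly(A) binding protein. The peak class of the inhibitor Paip2b was not stable over the settings.

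**Figure D1:**
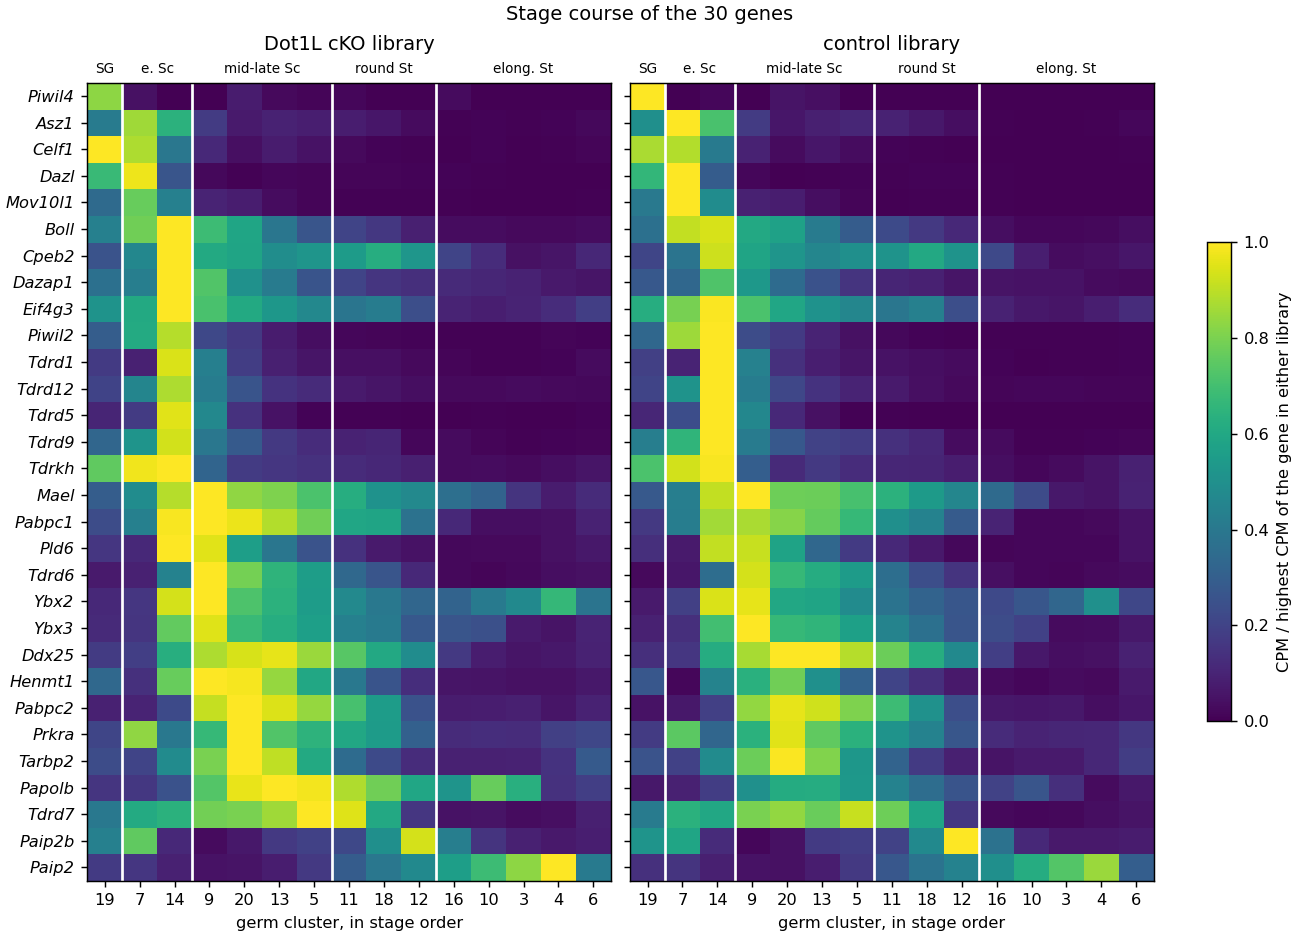
Level of each gene over the 15 germ clusters in stage order, as CPM divided by the highest CPM of that gene in either library, with the Dot1L cKO library left and the control library right (SG, spermatogonium; e. Sc, early spermatocyte; mid-late Sc, mid to late spermatocyte; St, spermatid). Rows run from Piwil4, highest in cluster 19, to Paip2, highest in cluster 4 at 2743 CPM in the cKO and 2335 CPM in the control library.

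Between the genotypes, most of the measured genes differed by less than 1.5-fold (0.585 on the log2 scale) in each of the 5 germ classes. In spermatogonia 4 of 28 measured genes were over 1.5-fold higher in the cKO library and 0 were over 1.5-fold lower, while 10.5% of all measured genes were higher and 4.66% lower by that rule. In early spermatocytes the numbers were 1 and 0 of 29, with 11.1% and 2.71% of all genes. In mid to late spermatocytes they were 3 and 0 of 29, with 14.0% and 5.82% of all genes. In round spermatids they were 5 and 0 of 29, with 19.2% and 6.94% of all genes. In elongating spermatids they were 12 and 0 of 28, with 34.7% and 4.54% of all genes. In early spermatocytes the share of higher genes lay under that of all genes, and in the other classes it was near it. Of the 29 genes measured in any germ class, 21 stayed within 1.5-fold in every measured class before the elongating stage. The share of all measured genes that did so was not computed, so the 21 cannot be set against it.

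The median log2 ratio of cKO over control over the measured genes was 0.14 in spermatogonia, 0.03 in early spermatocytes, 0.15 in mid to late spermatocytes, 0.11 in round spermatids and 0.52 in elongating spermatids. The same medians over all measured genes were -0.0024, 0.042, 0.065, 0.11 and 0.38. With the median of all genes set to 0, 4 genes stayed over 1.5-fold higher in elongating spermatids (Papolb, Dazl, Dazap1 and Celf1) and 1 was lower (Tdrkh), beside 15.9% and 12.2% of all genes. In round spermatids 4 were then higher (Henmt1, Papolb, Dazap1 and Celf1) and 0 lower, beside 15.1% and 9.58% of all genes. In mid to late spermatocytes 1 was then higher (Henmt1) and 0 lower, beside 12% and 7.08% of all genes.

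**Figure D2:**
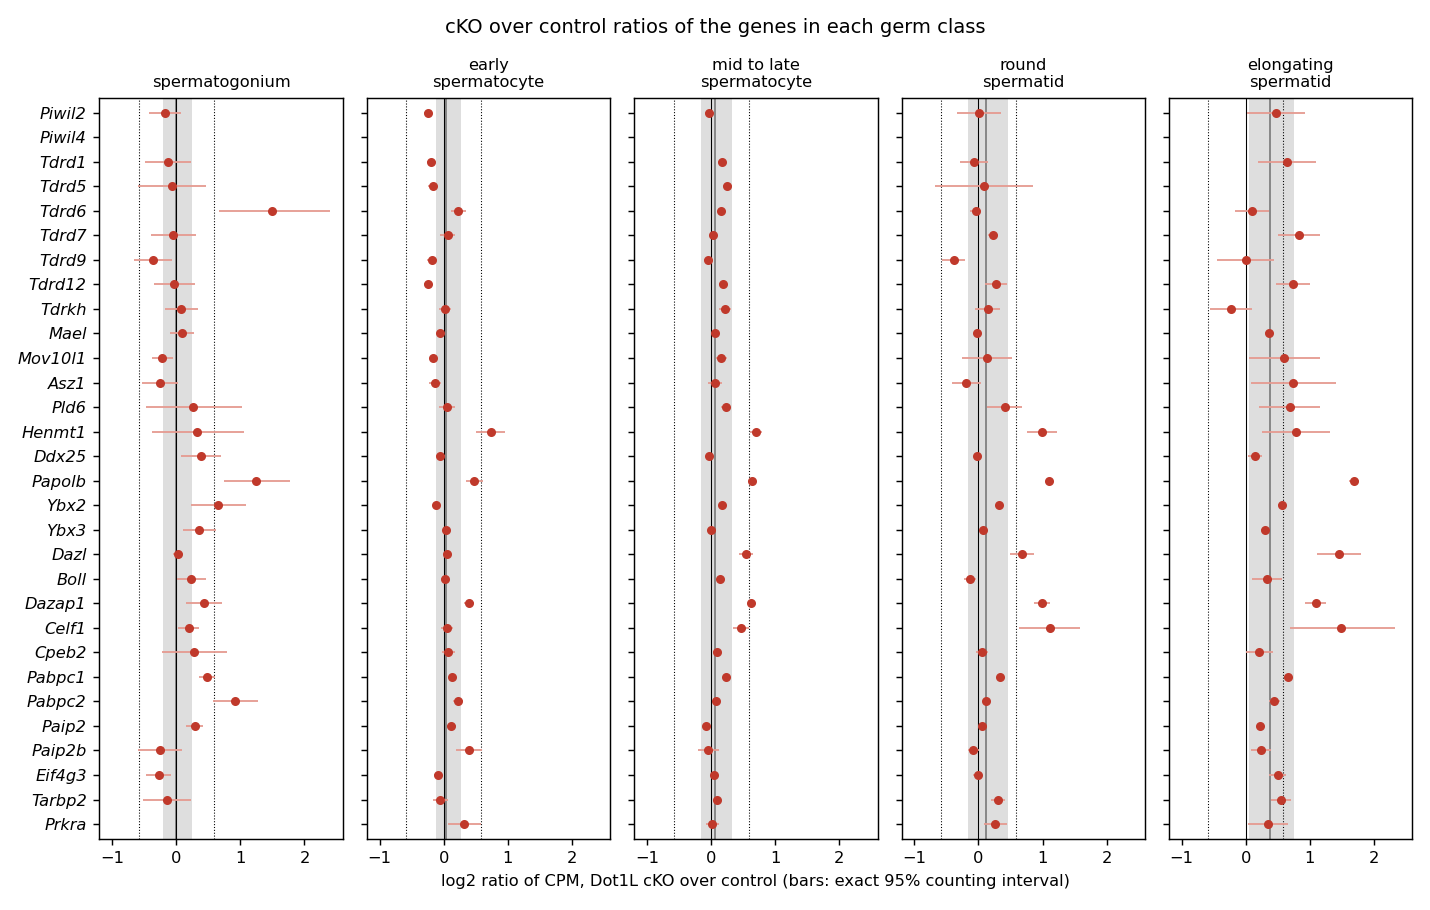
Log2 ratio of CPM in the Dot1L cKO over the control library for each measured gene in the 5 germ classes (points, with exact 95% counting intervals). Grey bands span the quartiles and grey lines the median of all measured genes, dotted lines mark 1.5-fold, and Papolb stands right of the upper dotted line in 4 of 5 classes, at 1.69 in elongating spermatids.

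**Figure D3:**
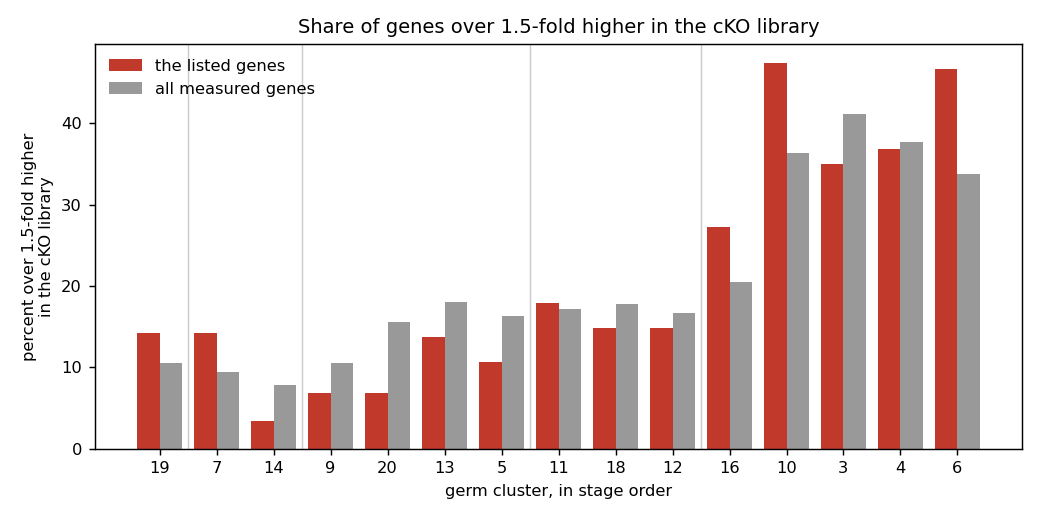
Percent of the listed genes (red) and of all measured genes (grey) over 1.5-fold higher in the Dot1L cKO library, for each germ cluster in stage order from spermatogonia to elongating spermatids. The red bars stand close to the grey ones in most clusters, and in cluster 10, an elongating spermatid cluster, 9 of 19 measured genes were higher, beside 36.3% of all genes.

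Papolb, the cytoplasmic poly(A) polymerase of the testis that lengthens the tails of stored mRNAs, had the widest difference of the 30 genes in elongating spermatids. It held 156, 1263, 15214, 6841 and 4939 UMIs in the 5 cKO classes from spermatogonia to elongating spermatids, and 42, 669, 10527, 3959 and 1948 UMIs in the control classes. Its level was 57.3, 85.1, 316.9, 282.2 and 189.4 CPM in the cKO classes, against 24.2, 61.1, 202.7, 131.3 and 58.7 CPM in the control classes. The gene peaked in mid to late spermatocytes in both libraries, and the cKO library kept more of that peak in spermatids. The log2 ratio was 1.24 (95% interval 0.74 to 1.77) in spermatogonia, 0.48 (0.34 to 0.62) in early spermatocytes and 0.65 (0.61 to 0.68) in mid to late spermatocytes. It was 1.10 (1.05 to 1.16) in round and 1.69 (1.61 to 1.77) in elongating spermatids. Papolb was higher in the cKO library in 15 of 15 germ clusters and by over 1.5-fold in 13 of them, with ratios from 0.47 to 2.31. In cluster 4, an elongating cluster, the level was 52.5 CPM in cKO and 10.6 CPM in control cells.

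Papolb is a gene without introns inside Radil, on the same strand (chromosome 5, 142525838 to 142530076, minus strand). Radil did not share the pattern, with 137 cKO and 186 control UMIs and a log2 ratio of -0.13 in round spermatids. In elongating spermatids it had 38 cKO and 41 control UMIs and a ratio of 0.24. Among 19 other measured genes within 1 Mb of Papolb, 4 (21.1%) were over 1.5-fold higher in the cKO round spermatids, beside 19.2% of all measured genes. Papola, the nuclear poly(A) polymerase, had 127.5 CPM in cKO and 141.2 CPM in control round spermatids, a log2 ratio of -0.15. The somatic pool held Papolb at 76.2 CPM in the cKO and 36.3 CPM in the control library (log2 ratio 1.07, 0.36 to 1.87). Free RNA from broken germ cells can reach all droplets, and the level in spermatogonia cannot be told apart from it, with 0.395 UMIs per spermatogonium in cKO and 0.189 in control, beside 0.297 per somatic cell in cKO and 0.124 in control. In the somatic pool 2 of 17 measured genes were over 1.5-fold higher in the cKO library (Papolb and Paip2b) and 0 lower, beside 16.3% and 6.12% of all genes. In elongating spermatids Papolb had 1.74 UMIs per cKO cell and 0.610 per control cell, over 2 times the somatic ones in both libraries.

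Henmt1, the methyltransferase that caps the 3′ ends of piRNAs with a methyl group and so protects them, was higher in the cKO library from early spermatocytes onward. It had 522, 2436, 378 and 74 UMIs in early spermatocytes, mid to late spermatocytes, round and elongating spermatids of the cKO library, and 232, 1625, 237 and 55 UMIs in those of the control library. These are 35.2, 50.7, 15.6 and 2.84 CPM in cKO classes, against 21.2, 31.3, 7.86 and 1.66 CPM in control classes. The log2 ratios were 0.73 (0.51 to 0.96), 0.70 (0.61 to 0.79), 0.99 (0.75 to 1.23) and 0.78 (0.25 to 1.31). In spermatogonia, with 53 cKO and 27 control UMIs, the ratio was 0.32 and its interval, -0.37 to 1.05, held 0. Henmt1 was higher in the cKO library in 9 of 9 clusters where it was measured, and over 1.5-fold in 7. The somatic pool held 10 UMIs in the cKO and 0 in the control library. The elongating value of 0.0261 UMIs per cKO cell is near the somatic 0.0206, and the ratio there turned to -1.49 when free RNA was subtracted. The gene lies on chromosome 3, 108939873 to 108960774, plus strand. Among 31 other measured genes within 1 Mb of it, 7 (22.6%) were over 1.5-fold higher and 1 (3.23%) lower in cKO round spermatids. Of all measured genes 19.2% were higher and 6.94% lower there.

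Dazap1, an RNA binding protein that was found as a partner of DAZ proteins, was highest in early spermatocytes, at 276.0 CPM in cKO and 210.3 CPM in control cells. From spermatogonia to elongating spermatids its levels were 118.6, 276.0, 178.0, 53.7 and 30.7 CPM in the cKO library, against 88.1, 210.3, 116.0, 27.1 and 14.4 CPM in the control library. The log2 ratios were 0.43, 0.39, 0.62, 0.99 and 1.09 in that order, and no interval held 0. Relative to the median of all genes they were 0.43, 0.35, 0.55, 0.88 and 0.71, so the last step up was not seen on that scale. In spermatogonia the ratio was 0.0039 when the cells were limited to 5% mitochondrial UMIs. Behind the spermatid values stood 1302 and 801 UMIs in cKO round and elongating spermatids, and 817 and 479 UMIs in control ones. Dazap1 was higher in the cKO library in 15 of 15 germ clusters and over 1.5-fold in 10. The mid to late spermatocyte value lay close to the 1.5-fold line and was under it in 5 of 14 other settings. Dazap1 lies on chromosome 10, 80261486 to 80288408, plus strand, 466.8 kb from Dot1l. Of 63 other genes measured within 1 Mb of Dazap1 in round spermatids, 13 (20.6%) were over 1.5-fold higher in the cKO library. Their median log2 ratio was 0.12. Within 1 Mb of Dot1l 17 of 69 (24.6%) were higher in that class, and 19.2% of all measured genes were. Whether the place on the chromosome has a part in the Dazap1 difference was not tested.

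**Figure D4:**
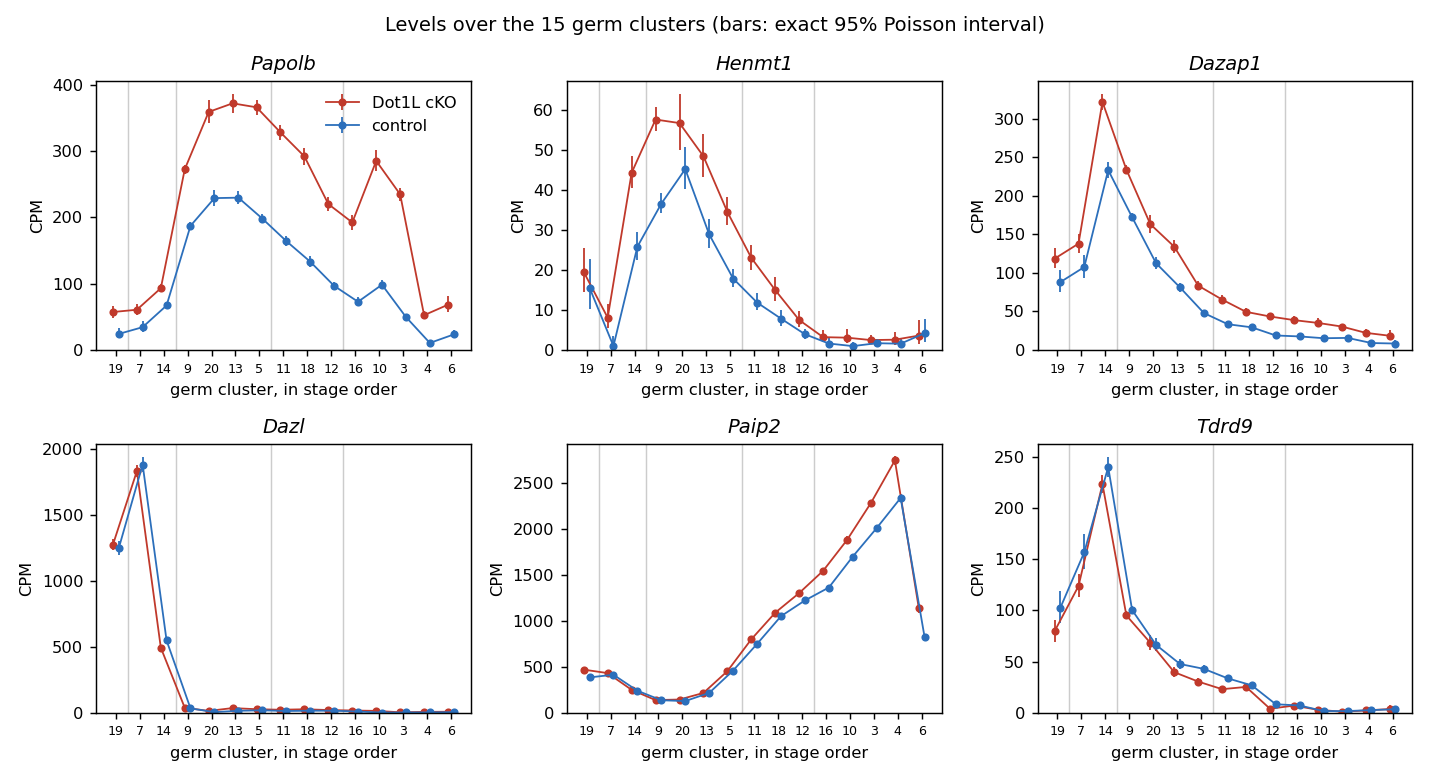
CPM of 6 genes over the 15 germ clusters in stage order in the Dot1L cKO library (red) and the control library (blue), with exact 95% Poisson intervals and grey lines between the germ classes. Papolb and Dazap1 lie higher in the cKO library in all 15 clusters, Dazl falls to under 50 CPM after early spermatocytes in both, Paip2 climbs through the spermatid clusters, and Tdrd9 lies lower in most cKO clusters.

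The other RNA binding regulators differed by over 1.5-fold only where their level was low. Dazl, which promotes translation in germ cells from spermatogonia to early meiosis, had 1274 and 828.2 CPM in cKO spermatogonia and early spermatocytes, against 1245 and 795.2 CPM in control ones (log2 ratios 0.03 and 0.06). Its highest cluster was early spermatocyte cluster 7 in both libraries, at 1832 CPM in cKO and 1881 CPM in control cells. With equal weight per cell its peak class was early spermatocytes in both libraries. After early spermatocytes Dazl dropped steeply in both libraries, to 32.2, 22.6 and 8.63 CPM in the later cKO classes and 22.0, 14.1 and 3.16 CPM in the later control classes. The log2 ratios of these low levels were 0.55, 0.68 (0.49 to 0.86) and 1.45 (1.11 to 1.80). The somatic pool held 39 Dazl UMIs in the cKO and 1 in the control library, and 0.0792 UMIs per elongating cKO spermatid stood beside 0.0804 per somatic cKO cell. Celf1, a regulator of splicing and mRNA decay, was highest in spermatogonia at 304.3 CPM in cKO and 266.1 CPM in control cells. It was over 1.5-fold higher in cKO round spermatids, with 104 UMIs against 60 in control (1.11, 0.64 to 1.59), and in elongating spermatids, with 44 against 20 (1.49, 0.69 to 2.33). Per cell, both spermatid levels were lower than that of the somatic pool, which expresses Celf1 at 82.1 CPM in cKO and 90.7 CPM in control.

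Boll and Cpeb2 stayed within 1.5-fold in every class. Boll, the meiotic member of the DAZ family, peaked in early spermatocytes at 377.4 CPM in cKO and 372.8 CPM in control cells, and its log2 ratios ranged from -0.13 in round to 0.33 in elongating spermatids. Cpeb2, of the family that binds the cytoplasmic polyadenylation element, had a second high point in round spermatid cluster 18, at 86.7 CPM in cKO and 84.3 CPM in control cells. Its ratios ranged from 0.06 to 0.28.

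The PIWI genes showed no difference of 1.5-fold. Piwil2, a PIWI protein active from the fetal germ line to early spermatids, was highest in early spermatocytes, with 4858 UMIs (327.1 CPM) in cKO and 4263 UMIs (389.1 CPM) in control cells. The log2 ratio there was -0.25, with an interval of -0.31 to -0.19, and that of mid to late spermatocytes was -0.03. Within the 4 clusters of the mid to late class the ratios were -0.10, -0.05, -0.43 and -0.34. Piwil4, the PIWI protein of fetal prospermatogonia that directs DNA methylation of transposons, was too low to measure in any class. It had 13 UMIs in cKO and 10 UMIs in control spermatogonia, and 4 or fewer per library in each later class.

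The 7 tudor domain genes, whose products bind methylated arginines of PIWI proteins and hold the granule together, stayed within 1.5-fold between the libraries through round spermatids, except for Tdrd6 in spermatogonia. Their median log2 ratios were -0.05, -0.17, 0.17 and 0.09 in the first 4 classes and 0.37 in elongating spermatids. Tdrd1, a scaffold for Piwil2, peaked in early spermatocytes at 259.5 CPM in cKO and 296.1 CPM in control cells. Tdrd5, needed for transposon silencing and the chromatoid body, reached 213.3 CPM in cKO and 240.7 CPM in control early spermatocytes. It was at or under 1.20 CPM in spermatids of both libraries. Tdrd12, which acts in secondary piRNA production, had 298.4 CPM in cKO and 352.1 CPM in control early spermatocytes. The log2 ratios of Tdrd1, Tdrd5 and Tdrd12 in that class were -0.19, -0.17 and -0.24, and each of their intervals lay under 0. In mid to late spermatocytes they were 0.17, 0.25 and 0.18, with each interval above 0. The differences were smaller in the main cluster of each class. In early cluster 14, which held most of their UMIs in that class, the ratios were -0.08 (-0.15 to -0.02) for Tdrd1, -0.06 (-0.14 to 0.01) for Tdrd5 and -0.19 (-0.26 to -0.12) for Tdrd12. In mid to late cluster 9, which held most of their UMIs there, they were -0.03, 0.01 and -0.0024, and each interval held 0.

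Tdrd9, a helicase with a tudor domain, was the gene most often lower in the cKO library. It had 79.7, 198.7, 69.5 and 17.3 CPM from spermatogonia to round spermatids in the cKO library, against 102.5, 224.7, 71.7 and 22.6 CPM in the control library. The log2 ratios were -0.36, -0.18, -0.04 and -0.39, none past 1.5-fold, and 1 of 11 measured clusters was above 0. In round spermatid cluster 12 the Tdrd9 ratio reached -1.09 (-1.73 to -0.49), over 31 cKO and 88 control UMIs. It was -0.54 in round cluster 11 and -0.09 in round cluster 18. Tdrd6 and Tdrd7, both parts of the chromatoid body, peaked later, in mid to late spermatocytes. Tdrd6 had 270.0 CPM in cKO and 243.2 CPM in control cells there, and Tdrd7 had 131.8 CPM in cKO and 128.9 CPM in control cells. In spermatogonia Tdrd6 had 66 UMIs in cKO and 15 in control cells, a log2 ratio of 1.49 (0.66 to 2.40). The level per spermatogonium, 0.167 UMIs in cKO and 0.0676 in control, was under that per somatic cell, 0.186 in cKO and 0.110 in control.

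Tdrkh, a tudor protein of the mitochondrial surface that helps to trim piRNAs, had 158.6 CPM in cKO and 156.1 CPM in control early spermatocytes. In elongating spermatids it was lower in the cKO library, at 131 UMIs (5.02 CPM) against 196 UMIs (5.91 CPM) in control (log2 ratio -0.23, -0.56 to 0.09). Tdrkh shares its locus with the spermatid gene Oaz3 on the opposite strand, and the sources used here do not say whether counting used strand. Oaz3 had 1834 CPM in cKO and 2224 CPM in control elongating spermatids, a log2 ratio of -0.28. Whether its reads enter the Tdrkh counts was not tested. Tdrkh was also low there, at 0.0461 UMIs per cKO and 0.0614 per control elongating spermatid. The somatic pool had 0.0268 per cKO cell and 0.0552 per control cell, so the elongating spermatid values of Tdrkh are uncertain.

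The other piRNA factors besides Henmt1 stayed within 1.5-fold through round spermatids. Mov10l1, the helicase that binds piRNA precursors, peaked in early spermatocyte cluster 7 at 585.7 CPM in cKO and 764.3 CPM in control cells, a log2 ratio of -0.38. Its class ratios were -0.22 in spermatogonia and -0.17 in early spermatocytes. Asz1, a scaffold of the granules between mitochondria, had 143.4 CPM in cKO and 158.0 CPM in control early spermatocytes (ratio -0.14). Pld6, the mitochondrial nuclease that cuts precursors, had 84.3 CPM in cKO and 81.6 CPM in control early spermatocytes, and its log2 ratio was 0.23 in the mid to late class (0.06 in its cluster 9) and 0.41 (0.14 to 0.68) in round spermatids. Mael, a granule protein of transposon silencing, was highest in mid to late spermatocytes, at 659.5 CPM in cKO and 634.4 CPM in control cells. Its ratios lay between -0.05 and 0.09 up to round spermatids, with 9703 cKO and 12252 control UMIs in the last of these. In elongating spermatids the Mael ratio was 0.36 (0.30 to 0.43) over 4079 cKO and 4036 control UMIs, beside a median of 0.38 over all measured genes. In elongating cluster 3 Mael had 111.9 CPM in cKO and 48.9 CPM in control cells (1.20), beside a median of 0.47 over all genes there.

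Ddx25, a helicase of the chromatoid body that exports and activates spermatid mRNAs, peaked in mid to late spermatocytes at 501.1 CPM in cKO and 513.7 CPM in control cells. Its log2 ratios in early spermatocytes, mid to late spermatocytes and round spermatids were -0.05, -0.04 and -0.02, with 8432 cKO and 10606 control UMIs in round spermatids. Ddx25 and Papolb, which share a place in the cytoplasmic control of spermatid mRNAs, thus had ratios of -0.02 and 1.10 in the same round spermatids.

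The Y box proteins Ybx2 and Ybx3 coat stored mRNAs and hold them from translation. Ybx3 had 962.0 CPM in cKO and 958.9 CPM in control mid to late spermatocytes, a log2 ratio of 0.0046 (-0.01 to 0.02) over 46177 cKO and 49811 control UMIs. In spermatids it had 458.7 and 173.6 CPM (round and elongating) in the cKO library, against 438.1 and 140.8 CPM in the control library. Ybx2 had a second high point late in spermatids, in cluster 4. In elongating spermatids as a whole it had 242.0 CPM in cKO and 164.1 CPM in control cells. Its log2 ratio was -0.12 in early spermatocytes, 0.18 in mid to late spermatocytes, 0.33 in round and 0.56 (0.51 to 0.61) in elongating spermatids. In spermatogonia it was 0.65 (0.23 to 1.08) over 165 cKO and 67 control UMIs, or 0.418 per cKO and 0.302 per control spermatogonium, beside 0.301 per somatic cKO cell and 0.324 per somatic control cell.

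Pabpc1, the general poly(A) binding protein, had 2629 CPM in cKO and 2242 CPM in control mid to late spermatocytes. It was higher in the cKO library in 15 of 15 germ clusters and over 1.5-fold in 4, and its class ratios were 0.48, 0.13, 0.23, 0.34 and 0.65. About 15.8% of the 40-base words in the last 400 bases of its transcript occur in transcripts of other genes. Pabpc2, its testis copy without introns, peaked in mid to late spermatocytes at 996.5 CPM in cKO and 943.4 CPM in control cells (log2 ratio 0.08). It already had 212 CPM in cKO and 182 CPM in control early spermatocytes. Its ratio of 0.92 (0.57 to 1.28) in spermatogonia rested on 270 cKO and 91 control UMIs, or 0.683 per cKO cell and 0.410 per control cell, beside 0.639 per somatic cKO cell and 0.434 per somatic control cell.

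Paip2 and Paip2b, which pull poly(A) binding protein off mRNA and damp translation, were the latest of the 30 genes by class of the highest CPM. Paip2 climbed to 2049 CPM in cKO and 1763 CPM in control elongating spermatids, with 53436 cKO and 58492 control UMIs and a log2 ratio of 0.22 (0.20 to 0.23), under the median of all genes in that class. In round spermatids it had 1046 CPM in cKO and 1004 CPM in control cells (0.06). Paip2b was highest in round spermatids, at 74.0 CPM in cKO and 78.1 CPM in control cells (-0.08). It was nearly as high in spermatogonia, at 60.2 CPM in cKO and 72.0 CPM in control cells. Its peak class moved to early spermatocytes in the cKO library with equal cell weight. In the control library it moved to spermatogonia with values centred per library. Eif4g3, a scaffold of translation initiation that spermatocytes need to leave meiosis, had 313.0 CPM in cKO and 332.5 CPM in control early spermatocytes, and its ratios ranged from -0.28 in spermatogonia to 0.50 in elongating spermatids.

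Tarbp2 and Prkra bind double stranded RNA as partners of Dicer, and Tarbp2 is also needed for translation of protamine mRNA. Tarbp2 had 184.4 CPM in cKO and 173.6 CPM in control mid to late spermatocytes (0.09) and 56.1 CPM in cKO against 45.2 CPM in control round spermatids (0.31, 0.20 to 0.42). Prkra had 32.5 CPM in cKO and 32.1 CPM in control mid to late spermatocytes (0.02), and 57.2 CPM in cKO against 56.4 CPM in control cells of the somatic pool.

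The 12 genes over 1.5-fold higher in cKO elongating spermatids were Papolb, Dazap1, Henmt1, Dazl, Celf1, Tdrd1, Tdrd7, Tdrd12, Mov10l1, Asz1, Pld6 and Pabpc1. Of these only Papolb had over 2 times as many UMIs per elongating spermatid as per somatic cell in both libraries, and 5 of the 12 were above the somatic level in both at all. Mov10l1, for example, had 63 UMIs in 2839 cKO and 53 UMIs in 3194 control elongating spermatids (log2 ratio 0.60, 0.05 to 1.15). Asz1 had 47 cKO and 36 control UMIs there (0.73). Tdrd7 had 188 cKO and 135 control UMIs (0.83, 0.50 to 1.16). That is 0.0662 per cKO and 0.0423 per control elongating spermatid, beside 0.167 per somatic cKO cell and 0.124 per somatic control cell. Tdrd1 had 92 cKO and 75 control UMIs (0.64), Tdrd12 had 269 cKO and 206 control UMIs (0.73), and Pld6 had 87 cKO and 69 control UMIs (0.68). Pabpc1 had 172.0 CPM in cKO and 109.4 CPM in control elongating spermatids, and 62.3% of these cells in cKO and 45.7% in control held a UMI of it. In the somatic pool it stood at 615 CPM in cKO and 443 CPM in control. The somatic level also counts RNA that somatic cells express themselves. A gene such as Pabpc1 or Celf1 can therefore lie under it without its spermatid RNA being free RNA. Over all 5 germ classes the 1.5-fold rule was met 25 times, and 9 of these were over 2 times the somatic level in both libraries. They were Henmt1 in early spermatocytes, and Henmt1, Papolb and Dazap1 in mid to late spermatocytes. The rest were these 3 and Dazl in round spermatids, and Papolb in elongating spermatids. The share of all measured genes that met both rules was not computed. With the median of all genes set to 0, 3 of the 9 fell under 1.5-fold. These were Papolb (0.580) and Dazap1 (0.552) in mid to late spermatocytes and Dazl (0.564) in round spermatids.

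Of 93 further genes of germ granules, mRNA storage and small RNA processing, 5 of 86 measured in spermatogonia were over 1.5-fold higher in the cKO library and 3 lower. The numbers were 5 and 2 of 87 in early spermatocytes, 12 and 4 of 88 in mid to late spermatocytes, 20 and 4 of 83 in round spermatids, and 32 and 1 of 71 in elongating spermatids. Of all measured genes, 10.5%, 11.1%, 14.0%, 19.2% and 34.7% were higher in these classes and 4.66%, 2.71%, 5.82%, 6.94% and 4.54% lower. Piwil1, the PIWI protein of pachytene piRNAs, had 615.4 CPM in cKO and 703.0 CPM in control early spermatocytes, and 242.0 CPM in cKO against 227.6 CPM in control cells of the mid to late class. Mybl1, the transcription factor of the pachytene piRNA genes, had 113.6 CPM in cKO and 87.6 CPM in control early spermatocytes, and 58.0 CPM in cKO against 41.2 CPM in control cells of the mid to late class. Ddx4, the granule helicase whose gene lends its promoter to the Cre, was lower in the cKO library, at 253.1 CPM in cKO against 409.5 CPM in control mid to late spermatocytes and 128.4 CPM in cKO against 214.1 CPM in control round spermatids.

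In mid to late spermatocytes the highest ratios of these further genes were those of Ythdc2, a helicase of meiotic entry (1.12), Pabpn1, the nuclear poly(A) binding protein (1.05), and Tsnax, the translin partner (1.03). The lowest were D1Pas1, the autosomal relative of Ddx3x (-0.84), the RNA-activated kinase Eif2ak2 (-0.84) and the decay factor Upf3b (-0.71). In round spermatids Elavl1, a binder of AU-rich elements, had 40.3 CPM in cKO and 12.5 CPM in control cells (1.69), followed by Ago4 (1.47) and Khdrbs1 (1.34), and the lowest were D1Pas1 (-0.87), Ddx4 (-0.74) and Eif2ak2 (-0.58). In elongating spermatids Ybx1, the somatic Y box protein, had 256.8 CPM in cKO and 74.5 CPM in control cells (1.79), followed by Ago2 (1.77) and Khdrbs1 (1.74). The lowest there were D1Pas1 (-0.53), Pabpc1l (-0.50) and Smg6 (-0.30).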

How the data were processed

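The deposited files hold whole-number counts of UMIs per gene for each barcode of whole testis, from Cell Ranger 7.0.0 as their headers say, per the file headers. The build mm10 and Seurat 4.1.0 are named in the submitters' processing notes. Library totals were 156518838 UMIs (cKO) and 155487418 UMIs (control). Filters asked for at least 500 UMIs and 300 genes per cell and no more than 10% mitochondrial UMIs. Of the rest, 1156 cKO and 737 control barcodes were removed as doublets, by a score against 2 simulated doublets per cell. That threshold caught 46.0% of simulated cKO and 44.0% of simulated control doublets, so many doublets remain.

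Log values of counts scaled to 10000 per cell were clustered with 2000 variable genes, 30 components, 20 neighbours and Leiden resolution 1.0 (leidenalg 0.10.2, scikit-learn 1.9.0). The described genes, further pathway genes and Dot1l were left out. The clustering first planned split the libraries into separate clusters. A further 2745 genes over 2-fold apart between libraries were therefore left out, and variable genes were ranked by the mean of both libraries, a choice made after seeing the clusters. Clusters led by hemoglobin or Sertoli cell genes and low RNA clusters were not used (56.3% of kept cKO and 52.4% of kept control cells). Cluster names rest on 142 marker genes, with no deposited annotation, and may not match the study's.

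UMIs were summed per class and library, with exact Poisson intervals of CPM and exact conditional binomial intervals of ratios at 95% (scipy 1.17.1). Code was tested on simulated data. The genes, lists and markers were chosen with earlier results of these data known. Further genes are named as the 3 highest and 3 lowest ratios with 100 or more UMIs in the 3 later classes, plus Piwil1, Ddx4, Mybl1 and Papola, and 93 of 94 were matched. Positions are from GENCODE on GRCm38. Free RNA was estimated from the somatic pool at 1030.3 UMIs per cKO and 1207.5 UMIs per control cell. Its subtraction also takes away what somatic cells express themselves.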

Additional observations from a re-analysis of the deposited data

How the results depend on the processing

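Each class median, each count over 1.5-fold and the number of genes that kept their peak class were recomputed under up to 14 other settings. Of these settings, 3 were chosen after seeing the data. Of 218 such values, 194 stayed within the limits set for no change. In spermatogonia, the higher count was 8 with at most 5% mitochondrial UMIs, 7 by marker score, 1 with free RNA subtracted (2 lower) and 2 with 200 or more UMIs. In early spermatocytes it was 2 by marker score and with equal cluster weights, and 4 with values centred per library or with differing genes kept in the clustering. In mid to late spermatocytes it was 1 under median-of-ratios scaling, and the median was 0.048 with differing genes kept. In round spermatids it was 3 with free RNA subtracted (1 lower), and the median was -0.012 with differing genes kept. In elongating spermatids it was 4 under median-of-ratios scaling (1 lower, median 0.14), 5 without the 50 most abundant genes in the totals (median 0.33), 7 by marker score, 5 with free RNA subtracted (3 lower, median 0.23, 15 genes left), and 6 with 200 or more UMIs. With free RNA subtracted, Pld6 and Henmt1 turned to -1.77 and -1.49 in elongating spermatids. Apart from what the scaling and the subtraction do by construction, the cause was not tested. Of 1965 single values, 1616 were unchanged, 40 lost and 27 gained the 1.5-fold size, and 280 moved otherwise. Papolb stayed over 1.5-fold higher in round (0.98 to 1.11) and elongating spermatids (1.31 to 1.83) under all 14 settings. The peak class changed for at most 3 of 30 genes in either library.

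No paired analysis was possible because each genotype had 1 library, and no replicate was left out. Depth limits spermatogonia (2724106 UMIs in cKO and 1735938 UMIs in control) and all low levels in spermatids.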

Other observations

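Barcodes outside the germ and somatic classes gave these values. In cluster 0, led by hemoglobin genes, Papolb had 279.0 CPM in cKO and 137.6 CPM in control barcodes (log2 ratio 1.02), Dazap1 had 78.9 CPM in cKO and 51.2 CPM in control (0.62), and Ddx25 had 353.1 CPM in cKO and 353.3 CPM in control (-0.00092). In low RNA cluster 2, which carried spermatocyte markers, Papolb had 256.3 CPM in cKO and 132.9 CPM in control barcodes (0.95), Henmt1 had 52.6 CPM in cKO and 31.2 CPM in control (0.75), and Mael had 641.3 CPM in cKO and 597.3 CPM in control (0.10). Papolb ratios over the 8 clusters that were not used ranged from 0.93 to 1.47. Those of Dazap1 ranged from 0.04 in cluster 17 to 1.29 in cluster 23. Those of Henmt1 ranged from -0.60 in cluster 15 (8 cKO and 7 control UMIs) to 3.42 in cluster 8 (20 cKO UMIs and 1 control UMI).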
